A study of Danio rerio with 3 samples.

Results

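The genes described here are 54 cell cycle and DNA replication genes, followed in whole zebrafish embryos after a brief bath in cortisol or in its vehicle. They were found by gene name or by transcript. A probe was taken when its gene name on the array was a member's symbol. It was also taken when RefSeq assigned its transcript, or the older name it carried, to that gene. By this rule 52 of the 54 were on the array, through 128 of its 43603 probes, among 27216 named genes or transcripts in all. The 2 without a match were cdt1, which loads the replicative helicase, and bub1, a spindle checkpoint kinase. Of the 52, 35 act in DNA replication, 8 in the control of the cycle and 9 in mitosis. Each had 1 to 6 probes, 10 had a single probe, and 11 were listed only under older names, such as orc1l for orc1 and zgc:100912 for aurka. The rrm2 probes belong to the gene that RefSeq now calls rrm2l.

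The cortisol groups were wild-type embryos kept for the first 2 hours after fertilisation, from 0 to 2 hours post fertilisation (hpf), in water with 5 mg/L (13.8 µM) cortisol, the main stress steroid of fish. The vehicle groups were wild-type embryos kept for the same 2 hours in water with 2 ml/L absolute ethanol, in which the cortisol had been dissolved. Both were raised at 28.5 °C without further treatment and fixed at 5, 12 or 24 hpf, and the parent fish came from a pet shop, with no strain given. RNA of cortisol embryos was labelled red (Cy5) and RNA of vehicle embryos green (Cy3) on the same array at every stage, with no dye swap, so that an effect of the dye and an effect of cortisol cannot be told apart. The labels speak of 4, 3 and 1 replicates at 5, 12 and 24 hpf, but 1 set of values was deposited for each stage. There is thus no spread between samples, and every comparison below describes 1 value set per group by its size, without a test. By the slide number in the deposited file names, the 12 and 24 hpf values belong to 1 slide and the 5 hpf values to another, so that slide and stage cannot be told apart in changes from 5 to 12 hpf. In whole embryos, fewer cells that express a gene and less RNA per cell cannot be told apart.

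Before a cell copies its DNA, the origin recognition complex (ORC), Cdc6 and Cdt1 load the ring-shaped MCM2-7 helicase onto chromatin; Cdc45 and the GINS complex then switch the helicase on. DNA polymerases, the sliding clamp PCNA with its loader RFC, and the single-strand binding protein RPA carry out the copying, and cyclins with their kinases time these steps and the entry into mitosis. A zebrafish egg is stocked with maternal RNA and protein for very fast early divisions; when the embryo's own genome becomes active, much of the maternal RNA is cleared and the cycle slows.

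The arrays differed most in the brightness of the cortisol channel. The 95th percentile of red signal above background was 7318, 330 and 290 at 5, 12 and 24 hpf, while that of green was 3710, 4350 and 1978. The median raw red signal of the members was 4048, 335 and 284 over local backgrounds of 121, 130 and 131. Both channels were measured above the negative controls for 51, 50 and 50 members, and for 19309, 12766 and 12319 genes in all. The pooled standard deviation (SD) between probes of the same member, which is an error of measurement within an array and not between embryos, was 0.20, 0.32 and 0.28 on the log2 scale of the cortisol ratio at the 3 stages. The stage labels could be set against 12 genes of the early embryo: all 12, nanog and pou5f3 among them, lay lower at 12 than at 5 hpf in vehicle embryos, and 11 of them by at least 2-fold.

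Between 5 and 12 hpf the 7 member cyclin genes of vehicle embryos all fell, while the genes of the replication machinery had a median change near 0 and moved in both directions. Levels over time are green signals normalised to the same distribution at the 3 stages, a scale on which the median of all probes was 82.7 at 5 hpf. A probe's level may be set against its own level at another stage and not against another gene's. Among 51 members measured at both stages, 6 rose by at least 2-fold, against 14% of the 17907 genes measured, and 12 fell by at least 2-fold, against 14.9% of them. The median log2 change was -0.18 for the members and -0.03 for all genes. It was 0.03 for the replication members, -1.35 for the control members and -0.66 for the mitosis members, which left replication 0.69 above mitosis on the log2 scale, or 0.28 with each gene's brightest probe. The pooled SD between probes of a member was 0.57 for this step.

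The 7 member cyclins had a median log2 change of -2.74. Of 5 further cyclin genes measured, ccng1 (-1.56) and ccnd3 (-1.28) also fell by at least 2-fold, while ccnb3 (-0.27), ccng2 (-0.06) and ccnd2a (0.75) did not. Cyclin A1, encoded by ccna1 and known in vertebrates mainly from germ cells and early embryos, had levels of 9439, 99.5 and 84.8 at 5, 12 and 24 hpf. Of its 3 probes, 2 were measured at all 3 stages and give these levels, which at 12 and 24 hpf were close to the median of all probes; its log2 change from 5 to 12 hpf was -6.42 over 3 probes, and -8.22 with the deposited green signal, which carries no such offset as the 50 added here. The S-phase cyclin gene ccne1 had 3512, 277 and 159, a log2 change of -3.66 by 12 hpf.

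Its relative ccne2 had 926, 329 and 202 (log2 change -1.49). ccna2, whose cyclin acts in S phase and at the start of mitosis, had 3112, 466 and 332 (-2.74). The 2 mitotic B cyclins fell by similar amounts: ccnb1 had 12844, 2323 and 1220 (-2.47), with its 6 probes between -2.89 and -1.59.

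ccnb2 had 6530, 851 and 446 (-2.94). ccnd1, the cyclin that links growth signals to the cycle, had 1927, 831 and 1054 (-1.21), and its 4 probes ran from -2.10 to -0.20. It differed from the other 6 cyclins in being higher at 24 than at 12 hpf, by 0.34 on the log2 scale, which is short of 2-fold. Its 4 probes ran from -0.10 to 0.97 in this step, where the pooled SD between probes of a member was 0.35. With each array scaled to its 75th percentile instead, ccna1 was also above 0 (0.31, beside 0.27 for ccnd1).

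The genes of the kinases that the cyclins bind had other courses. cdk1, the partner of the B cyclins, had 717, 1730 and 1375 at 5, 12 and 24 hpf, and rose by 1.27 on the log2 scale by 12 hpf with 1 probe. cdk2, the partner of cyclins E and A, had 2462, 1464 and 1305, and its log2 change of -0.75 was short of 2-fold. Of the kinases that hold the cycle back, chek1 of the DNA damage checkpoint had 273, 357 and 153 (0.39) and wee1, which inhibits the cyclin-dependent kinases, had 357, 226 and 135 (-0.55), both short of 2-fold by 12 hpf.

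**Figure D1:**
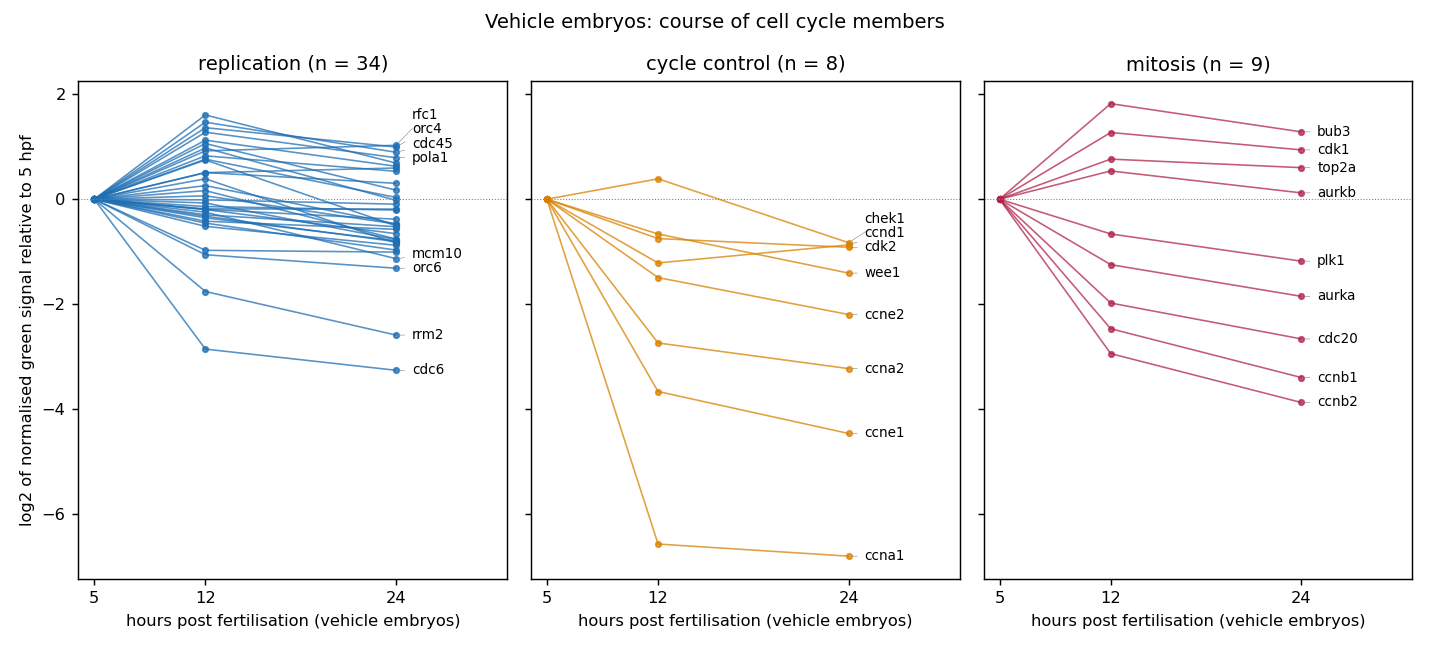
Level of each member in vehicle embryos at 5, 12 and 24 hpf (x axis, hours post fertilisation), as log2 of its normalised green signal relative to its own level at 5 hpf (y axis), with 1 line per member. The 34 replication members measured at all stages lie on both sides of 0 at 12 hpf, with cdc6 and rrm2 the lowest. The 8 cycle control and 9 mitosis members include the 7 member cyclins, which lie below 0 at 12 hpf. Lines use only probes measured at all 3 stages, which for cdc45 and pola1 is 1 of 2 probes.

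Among the genes that set up origins, cdc6 fell and the ORC subunits went different ways. cdc6 had 4344, 600 and 454 at 5, 12 and 24 hpf, a log2 change of -2.85 by 12 hpf, and its 2 probes differed by little (-2.87 and -2.84). orc4 rose, with levels of 338, 868 and 672 (log2 change 1.36), and so did orc3, with 554, 1155 and 624 (1.06).

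orc6 fell, with 750, 360 and 302 (-1.06). The other 3 subunits stayed within 2-fold at 12 hpf: orc1 had a log2 change of -0.46 and orc2 of -0.19, and orc5, at levels of 83.7, 73.6 and 73.5, lay near the median of all probes throughout. The 7 measured members of this role had a median of -0.19.

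The MCM2-7 genes, whose products form 1 ring together, had a median log2 change of 0.54, with 5 of 6 above 0. mcm6 rose, with levels of 1707, 5191 and 2751 at 5, 12 and 24 hpf (1.60, probes 1.43 and 1.78). mcm2 had 2781, 5473 and 2739, and its log2 change of 0.98 lay just under 2-fold, with probes at 0.55 and 1.41. The other 4 subunits, mcm3 (0.83), mcm4 (0.16), mcm5 (0.26) and mcm7 (-0.35), were within 2-fold.

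In helicase activation, cdc45 (0.64), gins2 (0.51), gins3 (-0.52) and mcm10 (-0.25) also stayed within 2-fold as means over probes. The 2 cdc45 probes lay apart, at -0.20 and 1.47. gins1 was not measured at 5 hpf and was measured at 12 hpf, where it was at least 1.07-fold higher. The bound sets its 12 hpf level against the lowest level that could be measured at 5 hpf.

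Of the genes that copy DNA, 1 rose and 1 fell by at least 2-fold. rpa1, the large subunit of the single-strand binding protein, had 408, 889 and 631 at 5, 12 and 24 hpf (log2 change 1.12, probes 0.37 and 1.87). rrm2, a subunit of the ribonucleotide reductase that makes DNA precursors, had 19970, 5904 and 3322 (-1.76), all 6 probes lying between -2.46 and -1.08. The other reductase subunit gene, rrm1, had 1650, 1318 and 942 (-0.32).

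The polymerase genes pola1, pola2, pold1 and pold2 lay between -0.30 and 0.76, and pcna with the 5 RFC genes between -0.42 and 0.92. The 2 pola1 probes lay apart, at 0.00 and 1.28. rpa3 had a log2 change of -0.97, just under 2-fold, with 1 measured probe. fen1 (0.07) and lig1 (-0.20), which process and seal the pieces of the lagging strand, were within 2-fold.

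The mitosis members were split. bub3, a spindle checkpoint protein, had levels of 815, 2877 and 1982 at 5, 12 and 24 hpf and the largest rise of any member by 12 hpf (log2 change 1.82, probes 1.81 and 1.83). cdc20, which activates the ligase that ends mitosis, had 4056, 1030 and 641 (-1.98). aurka, a kinase of the spindle poles, had 1587, 669 and 440 (-1.25).

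The other Aurora kinase gene, aurkb, whose product acts at centromeres and the midzone, had 5371, 7800 and 5839 (0.54), within 2-fold and above 0. plk1, a further mitotic kinase, had 1601, 1012 and 707 (-0.66), with probes at -1.32 and -0.01. top2a, which untangles chromosomes, had 379, 644 and 575 (0.76).

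**Figure D2:**
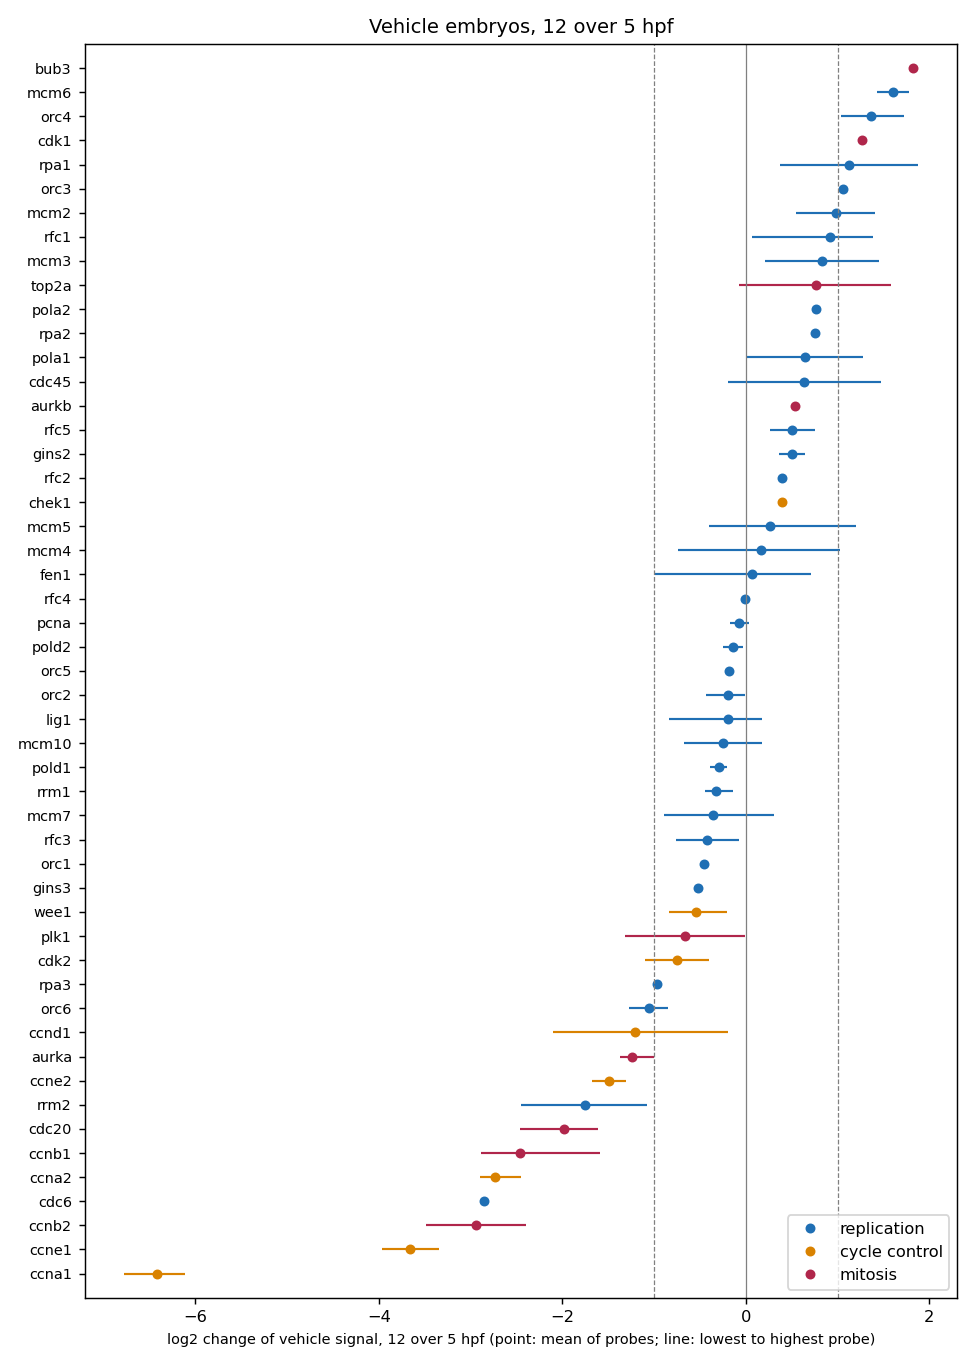
Log2 change of the normalised green signal of vehicle embryos, 12 over 5 hpf (x axis), for the 51 members measured at both stages (y axis, ordered by change, coloured by class). Points are means over a member's probes, lines run from its lowest to its highest probe, and dashed lines mark 2-fold. The 7 cyclins, cdc6, rrm2, cdc20, aurka and orc6 lie left of the lower dashed line; bub3, mcm6, orc4, cdk1, rpa1 and orc3 lie right of the upper one.

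Related genes with probes of their own did not all follow the members. For mcm3, mcm6 and wee1, a related gene fell much further than the member. mcm3l and mcm6l are further MCM genes, the counterparts of forms known as maternal from the frog; mcm3l had 3212, 229 and 136 at 5, 12 and 24 hpf (log2 change -3.81 by 12 hpf), beside 401, 710 and 579 for mcm3. mcm6l had 1870, 112 and 65.3 (-4.07), beside the rise of mcm6. wee2, a WEE1 relative known from mammalian oocytes, had 12230, 126 and 73.5 (-6.60), beside -0.55 for wee1. Others did not fall by at least 2-fold: ccnd2a had 0.75, beside -1.21 for ccnd1, ccnb3 had -0.27, beside -2.47 for ccnb1, and chek2 had 0.48, beside 0.39 for chek1.

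mcm3l, mcm6l and wee2, with gmnn, which encodes the Cdt1 inhibitor geminin and had 22672, 2032 and 1392 (-3.48), were the largest changes in the lists of further genes of the pathway. Those lists are neither exhaustive nor independent of earlier results. Of 27 further replication genes measured, 4 rose and 9 fell by at least 2-fold from 5 to 12 hpf; of 32 further mitosis genes 5 rose and 12 fell, and of 24 further control genes 3 rose and 4 fell, beside 14% and 14.9% of all genes. The falls among further replication and mitosis genes were thus more frequent than over all genes, which was not tested.

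**Figure D3:**
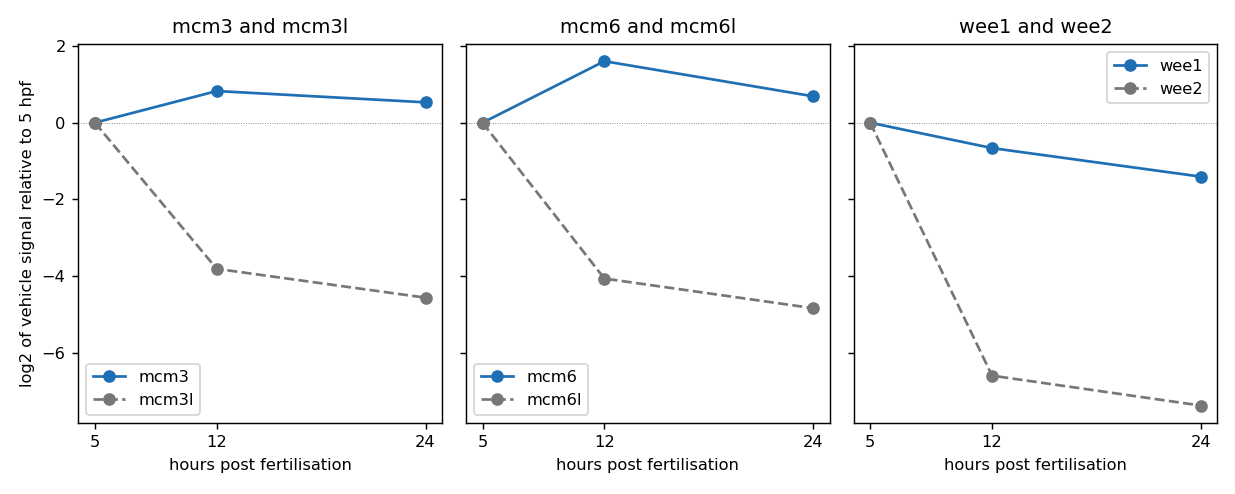
Log2 of the normalised green signal of vehicle embryos relative to 5 hpf (y axis) at 5, 12 and 24 hpf (x axis) for 3 members (solid) and a related gene each (dashed). At 12 hpf mcm3l, mcm6l and wee2 lie at -3.81, -4.07 and -6.60, while mcm3 and mcm6 lie above 0 and wee1 lies far above wee2.

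Between 12 and 24 hpf nearly all members lay lower, most of them by little. This step shares the 12 hpf values with the step before it. The same green signals are also the vehicle side of the cortisol ratios at 12 hpf. A vehicle peak and a low cortisol ratio at 12 hpf are therefore not separate observations. Of 52 measured members 48 were below 0, as were 10449 of 18068 genes. None rose by at least 2-fold, against 6.03% of all genes, and 3 fell, against 3.58%. The median log2 change was -0.49 for the members and -0.06 for all genes, and the classes were close to one another, at -0.46 for replication, -0.60 for control and -0.54 for mitosis.

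The 3 that fell by at least 2-fold each had 1 probe. They were rpa2, the middle subunit of the single-strand binding protein (2134, 3583 and 1502 at 5, 12 and 24 hpf, log2 change -1.25 from 12 to 24 hpf), rfc2 of the clamp loader (1084, 1419 and 607, -1.22) and chek1 (-1.22). All 3 were highest at 12 hpf. Their cortisol ratios at 12 hpf, from the same probes and green signals, were -0.68, -1.22 and -0.57. mcm2 lay at the threshold with -1.00, followed by ccnb1 and ccnb2 with -0.93 each. The 6 MCM2-7 genes had a median of -0.82 and all 9 mitosis members were below 0, from -0.93 to -0.16.

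The 4 members above 0 were ccnd1 (0.34), rfc1 (0.11), gins2 (0.09) and gins1 (0.05). orc5 (-0.00) and rpa3 (-0.03) hardly differed. With each array scaled to its 75th percentile instead, 10 members fell by at least 2-fold, against 732 of 18068 genes, while the median of all genes was 0.30. With the deposited green signal 11 fell, against 2424 of 18068 genes. Of the genes past 2-fold, 62.8% were higher here and 49.2% with the deposited green signal.

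Of the further genes, 25 of 27 replication genes, 31 of 33 mitosis genes and 17 of 23 control genes were below 0 from 12 to 24 hpf. pold4, a small polymerase subunit gene, was the 1 further gene past 2-fold (1.41). In the same step the markers of differentiated, mostly non-dividing cells rose: all 4 muscle genes by at least 2-fold (median 5.31), 3 of 4 erythroid genes (3.01) and 2 of 3 neuronal genes (3.07). Their part in the lower levels of the members was not tested.

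At 5 hpf, 3 hours after the bath had ended, the members in cortisol embryos differed little from those in vehicle embryos. The median log2 ratio of cortisol over vehicle was -0.04 over 51 members and 0.01 over all genes. None was higher by at least 1.5-fold (0.585 on the log2 scale), against 2.94% of all genes, and 1 was lower, against 0.932%. The classes had medians of -0.04 for replication, -0.15 for control and 0.05 for mitosis. Of the genes past 1.5-fold, 75.9% were higher in cortisol embryos here and 56.6% by the authors' deposited ratio.

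The member that was lower was pold2, the small subunit of DNA polymerase delta. On the scale used within the arrays, its signal was 1619 in cortisol embryos and 2542 in vehicle embryos, a log2 ratio of -0.65 with probes at -0.69 and -0.61, and the authors' deposited ratio was -0.71. With centring on the median in place of the intensity-dependent fit, its ratio was -0.35, short of 1.5-fold. That value is relative to the median of all genes, which was 0.16 under this setting. Its partner subunit pold1 had a ratio of -0.28, with 3358 in cortisol embryos and 4086 in vehicle embryos.

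Just inside the threshold were cdc20 (-0.54; 4341 in cortisol embryos and 6324 in vehicle embryos), rfc3 of the clamp loader (-0.52), rpa2 (-0.51) and ccne2 (-0.51; 1003 in cortisol embryos and 1427 in vehicle embryos). The 3 cdc20 probes ran from -0.75 to -0.35. On the other side gins2 of the GINS complex had the highest ratio, 0.44, with 1888 in cortisol embryos and 1394 in vehicle embryos, followed by gins3 with 0.33.

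The 6 MCM2-7 genes lay between -0.25 and 0.06, and the 7 origin genes between -0.13 and 0.26. The 7 cyclins lay between -0.51 and 0.27, none of them past 1.5-fold. gins1 was measured only in cortisol embryos, at least 1.14-fold higher.

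At 12 hpf most members of each class lay slightly lower in cortisol embryos. The median log2 ratio was -0.21 over 50 members and -0.03 over all genes, with 39 of the 50 below 0, as were 7123 of 12766 genes. It was -0.28 for replication, with 27 of 33 members below 0. For control it was -0.07, with 6 of 8 below 0, and for mitosis -0.09, with 6 of 9 below 0. By the authors' deposited ratio the 3 classes were alike, at -0.21 for replication, -0.23 for control and -0.21 for mitosis, beside -0.09 over all genes. Here no member was higher by at least 1.5-fold, against 1.58% of all genes, and 5 were lower, against 3.24%. Red brightness moves with this: the median raw red signal of the members was 335 over a background of 130, and its part in the lower ratios was not tested. Of further genes of the pathway, 22 of 27 replication, 26 of 32 mitosis and 14 of 19 control genes were also below 0. So were 9 of 11 early-embryo markers.

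The 5 that were lower were all replication genes, 1 each from 5 roles. rfc2 had a signal of 291 in cortisol embryos and 678 in vehicle embryos, a log2 ratio of -1.22 with 1 probe, whose raw red signal was 182 over a background of 135; the authors' deposited ratio was -0.73. gins3 had 387 in cortisol embryos and 630 in vehicle embryos (-0.71), and the authors' deposited ratio was -0.03. rpa2 had 954 in cortisol embryos and 1528 in vehicle embryos (-0.68; the authors' deposited ratio -0.47).

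orc1, the largest ORC subunit, had 271 in cortisol embryos and 428 in vehicle embryos (-0.66; the authors' deposited ratio -0.31). mcm6 had 1385 in cortisol embryos and 2187 in vehicle embryos (-0.66, probes -0.71 and -0.61; the authors' deposited ratio -0.42). It was the 1 member of the 5 with more than 1 measured probe, against 36 of the 50 members measured, and its raw red signal was 565 over a background of 134. With the background model fitted to every spot, rfc2 (-0.66) and rpa2 (-0.91) passed 1.5-fold, while gins3 (-0.51), orc1 (-0.30) and mcm6 (-0.53) did not. By the authors' deposited ratio 2 members passed 1.5-fold, rfc2 and the checkpoint kinase gene chek1 (-0.86, against -0.57 here). Both were lower, as were 1500 of 12766 genes by that ratio.

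Among the roles, all 6 genes of the clamp and its loader were below 0 (median -0.44, -0.21 by the authors' deposited ratio). pcna had 717 in cortisol embryos and 1046 in vehicle embryos, a ratio of -0.54, but its 2 probes lay at -1.01 and -0.08. rfc3 (-0.47) and rfc5 (-0.42) were between pcna and the remaining rfc1 (-0.08) and rfc4 (-0.07).

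The 4 genes of nucleotide supply and the lagging strand were also all below 0: rrm2 (-0.46), rrm1 (-0.38), lig1 (-0.28) and fen1 (-0.17). Among the MCM2-7 genes 5 of 6 were below 0, the exception being mcm7 (0.17), and their median was -0.23. The 4 measured genes of helicase activation had a median of -0.38, which by the authors' deposited ratio was 0.05. gins1 was measured only in vehicle embryos, and was at least 1.08-fold lower in cortisol embryos; orc5 was also measured only in vehicle embryos, at a level that gives no bound.

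The highest ratios among the replication members were those of rpa3 (0.19), mcm7 and orc2 (0.16), so the subunits of RPA and of ORC did not lie together here. For RPA this depended on the normalisation. rpa1 had 0.125 here, with probes at -0.12 and 0.37, and -0.49 by the authors' deposited ratio. That ratio was -0.47 for rpa2 and 0.07 for rpa3. The median of the 3 RPA genes was 0.125 here and -0.47 by the authors' deposited ratio. The cyclins lay between -0.38 for ccnb1 and 0.08 for ccnd1. Of the mitotic kinases, cdk1 had -0.29, aurka 0.06, plk1 0.10 and aurkb 0.16. By the authors' deposited ratio the same kinases had -0.16, -0.29, -0.26 and 0.18, so aurka and plk1 had the other sign. The replication median minus the mitosis median was -0.19, but -0.002 by the authors' deposited ratio, -0.020 with red over 2 times its background and -0.074 with the background model fitted to every spot.

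**Figure D4:**
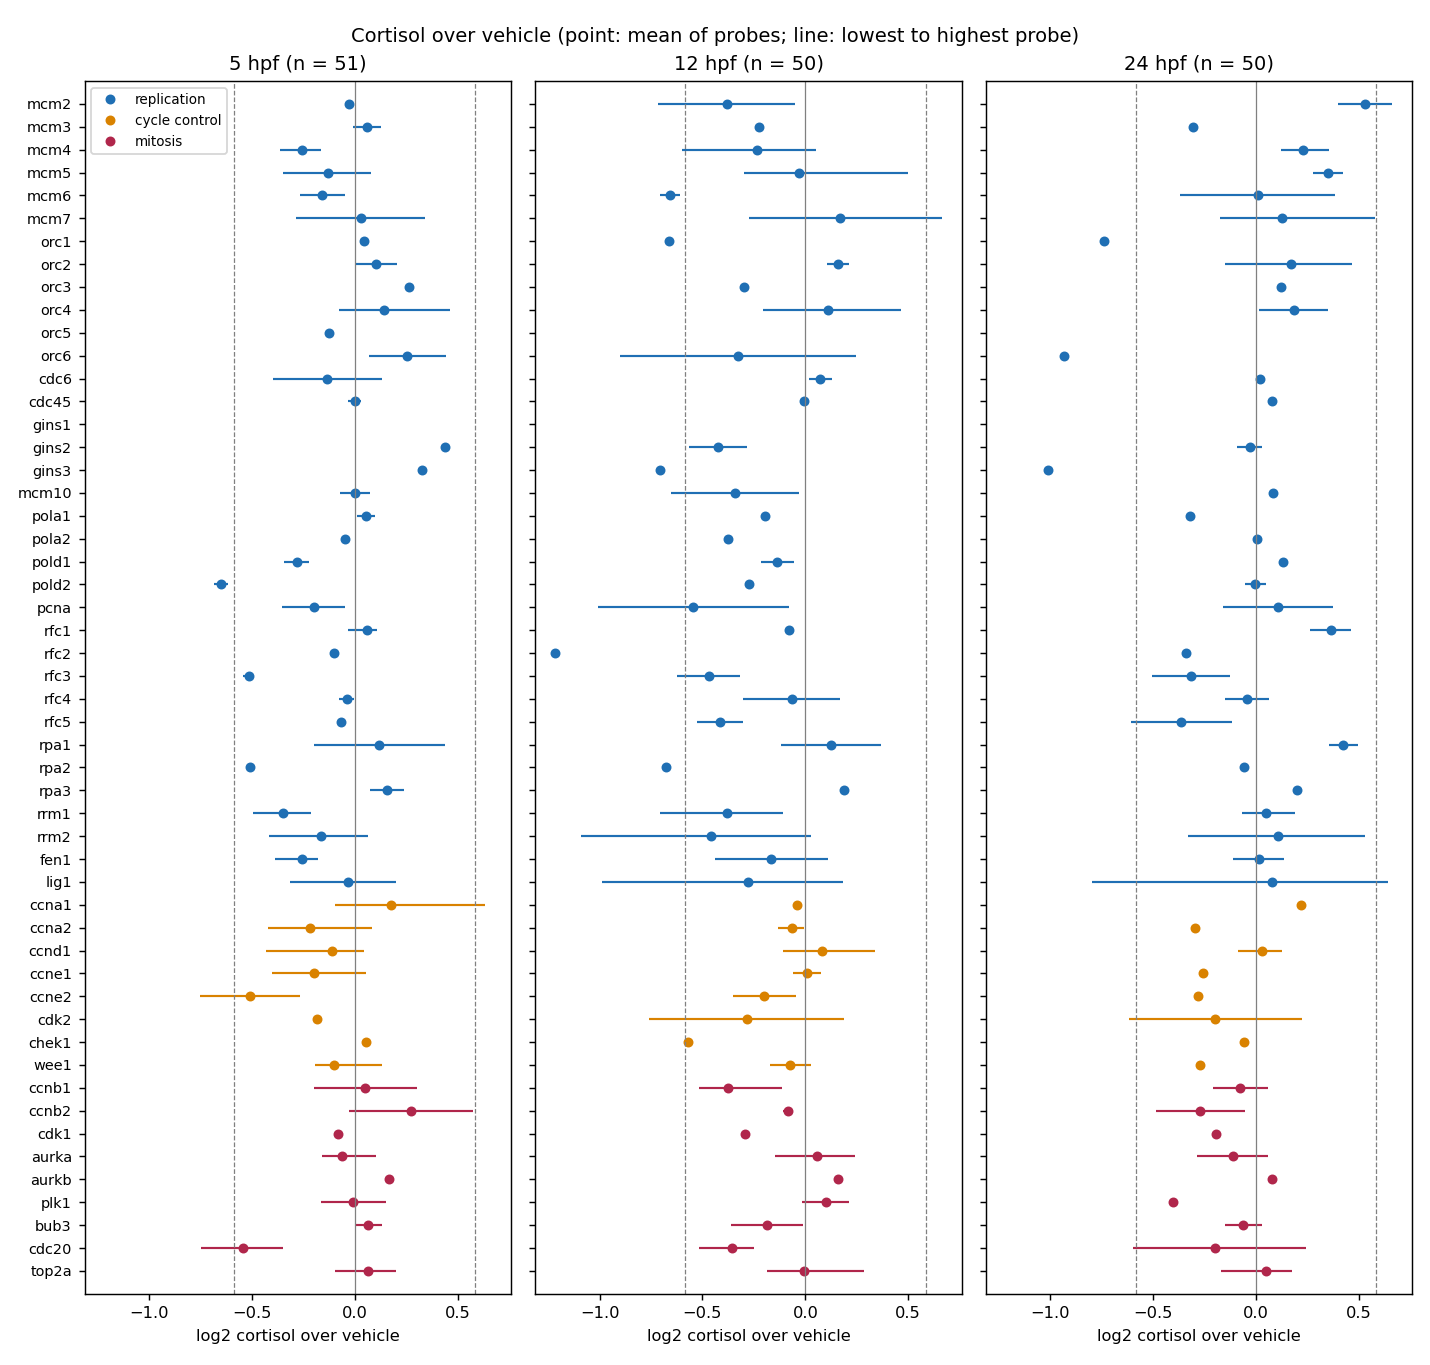
Log2 ratio of cortisol over vehicle embryos (x axis) for each measured member (y axis, by class and role) at 5, 12 and 24 hpf. Points are means over a member's probes, lines run from the lowest to the highest probe, and dashed lines mark 1.5-fold. No point lies beyond the upper dashed line; pold2 at 5 hpf, rfc2, gins3, rpa2, orc1 and mcm6 at 12 hpf, and gins3, orc6 and orc1 at 24 hpf lie beyond the lower one.

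At 24 hpf the members as a group lay close to vehicle level in cortisol embryos. The median log2 ratio was 0.00 over 50 members and -0.02 over all genes, with 25 of the 50 below 0. It was 0.05 for replication, -0.23 for control and -0.11 for mitosis. By the authors' deposited ratio the medians were 0.20 for replication, -0.05 for control and -0.04 for mitosis. Over all members the median by that ratio was 0.11, with 18 of 50 below 0, beside 0.00 over all genes. Here no member was higher by at least 1.5-fold, against 1.26% of all genes, and 3 were lower, against 4.43%, a share near that over all genes.

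gins3 had 176 in cortisol embryos and 354 in vehicle embryos, a log2 ratio of -1.01, and the authors' deposited ratio was -0.61. orc6 had 230 in cortisol embryos and 439 in vehicle embryos (-0.93, 1 of its 2 probes), but the authors' deposited ratio had the other sign, 0.25, and with both probes included regardless of detection the ratio computed here was -0.58, just short of 1.5-fold. orc1 had 138 in cortisol embryos and 229 in vehicle embryos (-0.74; the authors' deposited ratio -0.84). The 3 lower members rest on 1 measured probe each, as do 22 of the 50 members, and their raw red signals were 165, 185 and 145 over backgrounds of 134, 132 and 126. gins1 and orc5 were measured only in vehicle embryos, at levels that give no bound.

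By the ratio computed here, gins3 and orc1 were past 1.5-fold at both 12 and 24 hpf, with 0.33 and 0.04 at 5 hpf. Each rests on the same 1 probe at both stages, on 1 slide. Their raw red signals at 12 hpf were 210 and 172 over backgrounds of 132 and 127. Neither passed at 12 hpf by the authors' deposited ratio or with the background model fitted to every spot. rfc2, the lowest at 12 hpf, had -0.34 at 24 hpf, and mcm6 had 0.01. rpa2 had -0.06.

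On the higher side, the MCM2-7 genes had a median of 0.18, with mcm3 (-0.31) the 1 of 6 below 0. mcm2 had 1216 in cortisol embryos and 841 in vehicle embryos (0.53, probes 0.40 and 0.66; the authors' deposited ratio 0.58), and its raw red signal of 973 was well above the background of 125. mcm5 had a ratio of 0.35, rpa1 of 0.43 and rfc1 of 0.36, all short of 1.5-fold.

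The cyclins had a median of -0.26, from -0.30 for ccna2 to 0.22 for ccna1, whose signals of 79.1 in cortisol embryos and 68.0 in vehicle embryos lay near the offset of 50 added to every signal. By the authors' deposited ratio the cyclin median was -0.14. ccna1, ccna2, ccne1 and ccne2 rest on 1 measured probe each. The raw red signals of ccne1, ccne2 and ccnb2 were 174.5, 154 and 171 over backgrounds of 133.5, 133.5 and 127.5. plk1 had the lowest ratio of the mitosis members (-0.41, 1 of 2 probes). Replication lay 0.16 above mitosis, and with centring on the median in place of the intensity-dependent fit it lay -0.13 from mitosis.

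Of the genes past 1.5-fold at 24 hpf, 22.1% were higher in cortisol embryos here and 52.2% by the authors' deposited ratio; at 12 hpf the share was 32.8%, or 56.6% with the background model fitted to every spot. By the authors' deposited ratio 3 members were higher at 24 hpf, ccna1 (0.80), chek1 (0.66) and rpa1 (0.62), against 1237 of 12319 genes. Another 3 were lower by it, orc1 (-0.84), ccnb2 (-0.63) and gins3 (-0.61), against 1134 of 12319 genes. The raw red signals of ccna1 and chek1 were 138 and 142.5 over backgrounds of 127 and 133. Early-embryo markers moved in the same arrays: of 6 measured at 24 hpf, 3 were lower in cortisol embryos by at least 1.5-fold, ved (-1.53), pou5f3 (-1.00) and vox (-0.70), and their part in the members' ratios was not tested.

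Few further genes of the pathway passed 1.5-fold. Among the mitosis genes the share here was above that over all genes, higher at 5 hpf and lower at 12 and 24 hpf, which was not tested. The share of control genes that were higher at 5 hpf was also above that over all genes. By the authors' deposited ratio 3 of 32 mitosis genes and 2 of 24 control genes were higher at 5 hpf, beside 1790 of 19309 genes. By that ratio 3 of 32 mitosis genes were lower at 12 hpf, beside 1500 of 12766 genes, and 2 of 29 at 24 hpf, beside 1134 of 12319. These were not the mitosis genes that were lower here. They were ect2 (-1.22), kif20a (-0.97) and cdc27 (-0.68) at 12 hpf, and cdc16 (-0.72) and cdc25b (-0.59) at 24 hpf. At 5 hpf 1 of 28 further replication genes was higher in cortisol embryos by at least 1.5-fold, mcm3l (0.62), with 3 of 32 mitosis genes (spc24 with 0.71 and ube2c with 0.70 the furthest) and 2 of 24 control genes (chek2 with 0.82 and ccnd3 with 0.69), and none of these was lower; over all genes 2.94% were higher. At 12 hpf 1 of 27 further replication genes was lower, rnaseh2a (-0.78), which removes RNA from DNA, with 3 of 32 mitosis genes: cenpe (-0.85), smc4 (-0.72) and spc25 (-0.71), beside 3.24% of all genes. The authors' deposited ratios of these 4 at 12 hpf were -0.20, -0.46, -0.14 and -0.53, all short of 1.5-fold. At 24 hpf rnaseh2a (-1.00), smc4 (-0.79), cenpe (-0.70) and cdc23 (-0.60) were lower, the first of 25 replication genes and the other 3 of 29 mitosis genes, beside 4.43% of all genes, and no control gene passed at 12 or 24 hpf. The authors' deposited ratios of these 4 at 24 hpf were nearer to 0, at -0.27, 0.06, -0.00 and -0.05.

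**Figure D5:**
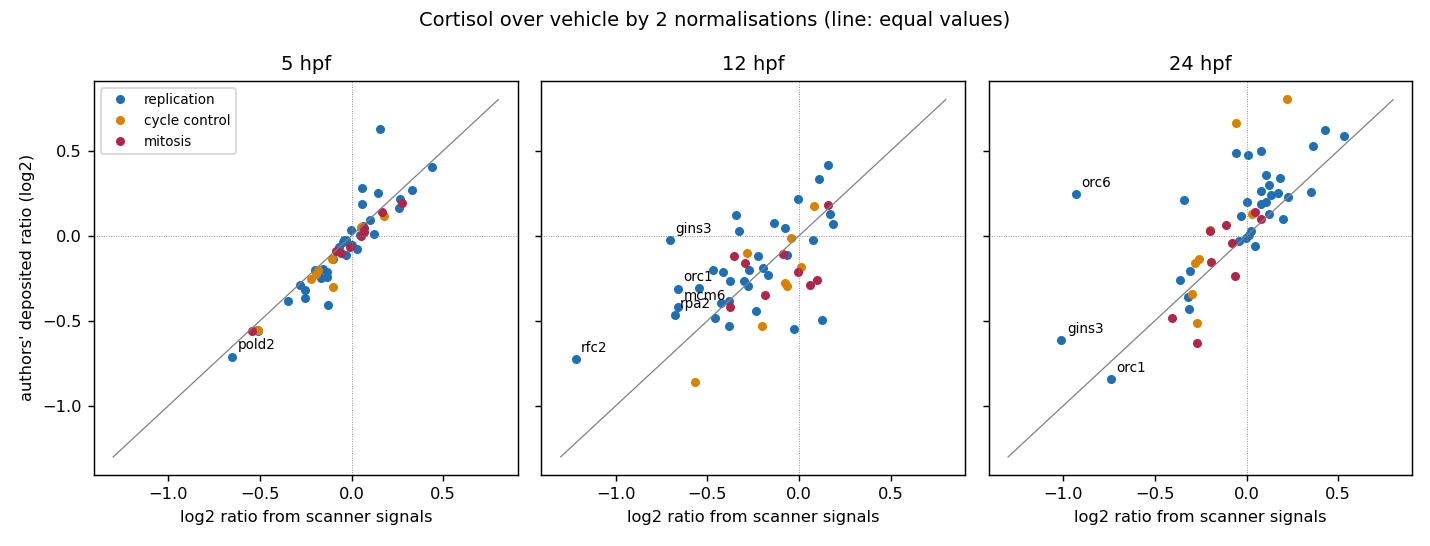
Log2 ratio of cortisol over vehicle for each measured member as computed here from the scanner signals (x axis) and as the authors' deposited ratio (y axis) at 5, 12 and 24 hpf, with a line of equal values. The members lie close to the line at 5 hpf and scatter more at 12 and 24 hpf, where orc6 at 24 hpf has opposite signs on the axes.

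The authors' deposited ratio comes from the same spots with another normalisation, and how closely it matched depended on the stage. It had the same sign for 47 of 51 members at 5 hpf, 40 of 50 at 12 hpf and 41 of 50 at 24 hpf. Pearson's r across members was 0.93, 0.57 and 0.70; members share an array and are not independent replicates. At 12 hpf both gave a median of -0.21 and 39 of 50 members below 0. The median over all genes was -0.03 here and -0.09 by the authors' deposited ratio. Of the members past 1.5-fold at 12 hpf, rfc2 alone passed by both ratios. At 5 hpf pold2 passed by both, and at 24 hpf gins3 and orc1 did.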

How the data were processed

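Total RNA of whole embryos (200 ng) was labelled and hybridised to 2-colour Agilent arrays. Per the file headers and the submitters' processing notes, the deposited scanner files hold the red and green intensity and local background of each spot from Agilent Feature Extraction (version not given in the sources used here), and the authors' deposited ratio is a log10 of red over green, rescaled here to log2. Values at 5 and 12 hpf may be means over arrays, which the deposited files do not say.

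Median signals were background-corrected with limma 3.58.1 (R 4.3.3; normexp, offset 50); spots whose local background exceeded the median background of their array by a factor of 2 were dropped (12, 9 and 0 spots at 5, 12 and 24 hpf). Log2 ratios were loess-normalised within arrays (control spots at weight 0). Green channels were quantile-normalised between stages. Channel signals beside ratios are on the within-array scale after loess and were not scaled between stages. Aquantile scaling entered only the bounds for members measured in 1 channel. The offset understates changes of dim probes. A probe was measured above the negative controls' mean plus 2 SD; spots of a probe and measured probes of a gene were averaged. Levels over time use the probes measured at all 3 stages and step changes those measured at both, so the 2 can differ. They differ most visibly for cdc45 and pola1, whose levels over time rest on 1 of 2 probes. Names came from the files and RefSeq accessions or synonyms. Since each group has 1 value set, sizes of 1.5-fold (cortisol) and 2-fold (stages) stand in for tests. Background correction and loess were tested on spots simulated from the 5 hpf signals, with red brighter than green and changes planted in bright probes. Dim red signals as at 12 and 24 hpf, the scaling between stages and the detection rule were not simulated.

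Members, lists and processing were chosen with earlier results of these data known. Values were printed for members past 1.5-fold, the 6 largest rises and falls per vehicle step, members of the complexes described, and up to 4 further genes per stage by size; mcm3l at 5 hpf and the further cyclins and chek2 in the 5 to 12 hpf step were named after their values were seen. The early-marker list was used without ccna1, a member. The alternatives were the deposited ratio and green signal, other background, centring, scaling and detection settings and the brightest probe; requiring red over 2 times its background was chosen after seeing the data.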

Additional observations from a re-analysis of the deposited data

Results flagged for a closer look

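Some cortisol ratios pointed in opposite directions at different stages, by at least 0.1 on the log2 scale at 1 of the stages compared; with 1 value set per stage the difference was not tested. The median over the replication members was -0.28 at 12 hpf and 0.05 at 24 hpf. The median over the mitosis members was 0.05 at 5 hpf and -0.11 at 24 hpf. By the authors' deposited ratio it was -0.002 and -0.04, which are not opposite in direction. For orc6 the ratio was 0.26 at 5 hpf and -0.93 at 24 hpf, where the authors' deposited ratio was 0.25. For gins3 it was 0.33 at 5 hpf, -0.71 at 12 hpf and -1.01 at 24 hpf.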

How the results depend on the processing

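No paired analysis was possible because each group has 1 sample. Of the 116 alternative values for the medians and counts, 22 moved by more than the limit set for them (a count by 1.5 times, a median by the SD between probes, which is a wide limit for a median) and 94 did not. Among those 94, replication minus mitosis was -0.002 by the authors' deposited ratio at 12 hpf (reported -0.192) and 0.276 with the brightest probe from 5 to 12 hpf (reported 0.688). Centring on the median without loess, under which the median ratio of all genes was 0.16, -1.70 and -1.21 at 5, 12 and 24 hpf, moved the members' median minus that of all genes to 0.213, -1.093 and -0.684 (reported -0.055, -0.183 and 0.025). It put 9 members higher and 0 lower by 1.5-fold at 5 hpf, beside 2528 and 48 of 19309 genes. It put 49 lower at 12 hpf, beside 10450 of 12766 genes, and 48 lower at 24 hpf, beside 9375 of 12319 genes. Replication minus mitosis at 24 hpf was then -0.127 (reported 0.161). By the authors' deposited ratio 1 member was higher at 5 hpf, 2 were lower at 12 hpf and 3 were higher at 24 hpf. Over all genes 1790 of 19309, 1500 of 12766 and 1237 of 12319 did so. The count of members lower at 24 hpf stayed at 3, and orc6 at 24 hpf turned to 0.246. With each gene's brightest probe 1 was higher and 2 lower at 5 hpf, beside 790 and 268 of 19309 genes. By the same setting 9 were lower at 12 hpf, beside 602 of 12766 genes, and 7 at 24 hpf, beside 827 of 12319. In vehicle embryos 13 rose by 12 hpf (reported 6), beside 3039 of 17907 genes. The background model fitted to every spot gave 2 higher at 12 hpf, beside 380 of 12766 genes. Where red had to exceed 2 times its background, an added alternative, 3 of 38 members were lower at 12 hpf, beside 159 of 3267 genes. At 24 hpf 1 of 35 was lower, beside 205 of 2993 genes, fewer members being measured. From 12 to 24 hpf in vehicle embryos the 75th percentile gave -0.868 for the members' median minus that of all genes (reported -0.423) with 10 falls, and the deposited green signal 11 (reported 3). Of 18068 genes, 732 fell with the 75th percentile and 2424 with the deposited green signal. For single genes 117 values stayed, 23 moved and 1 reversed. Beyond the fewer members measured, the cause was not tested. Red signal near background limits the ratios at 12 and 24 hpf.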
